A study of Mus musculus with 47 samples.

Results

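The genes described here are 9 transcription factors that act in blood cells, Spi1, Cebpa, Cebpb, Cebpd, Cebpe, Gfi1, Irf8, Klf4 and Nfe2, and the clock gene Per3. These 10 members were chosen by symbol from the 20456 genes of the deposited count table. All 10 passed the filter on low counts, as did 16892 genes in all. The counts come from RNA-seq of whole liver, lung and brain of C57BL/6 mouse embryos at E18.5, in 47 libraries of 12 groups. One set of litters held embryos homozygous for S226A, a substitution in Daxx that disrupts its binding to the histone variant H3.3, and their wild-type littermates. The other set held embryos homozygous for Y130A, which disrupts the binding of Daxx to the chromatin remodeler Atrx, and their own wild-type littermates. Each group had 4 libraries, 1 from each of 4 litters, except that 3 wild-type lungs stood against the Y130A lungs. Each mutant was compared with its own littermates, so that the comparisons of S226A and Y130A share no library. Both alleles are knock-ins made with CRISPR/Cas9 in C57BL/6N zygotes, bred onto C57BL/6J, and carried in every cell of the embryo. The RNA is that of all cell types of an organ.

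Blood cell fate in the fetal liver is set by transcription factors that act in sequence and in opposition. Spi1 encodes PU.1, an ETS factor required for all myeloid cells, and Cebpa opens the path from progenitors to granulocytes and monocytes. Cebpe and Gfi1 drive the maturation of neutrophils and the genes of their granules, whereas Irf8 and Klf4 promote the monocyte fate, and GFI1 and IRF8 are known to counteract each other. Cebpb and Cebpd are inducible members of the same C/EBP family, which also act in hepatocytes and lung epithelium. Per3 belongs to the period genes of the circadian clock, and Nfe2 encodes the blood-restricted subunit of NF-E2 in erythroid cells and megakaryocytes. Neither of the last pair is a factor of the choice between granulocytes and monocytes.

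The libraries of the S226A litters held 15722147 to 26190403 counted reads each and those of the Y130A litters 36351738 to 54885020, so low members were measured with fewer reads in the S226A set. Values are normalized counts, which are reads scaled to a common library size with TMM factors. FPKM (reads scaled to exon length and library size) is used where the levels of genes are ranked. A member passed when its adjusted p (edgeR's quasi-likelihood test, Benjamini-Hochberg over all 16892 genes) was below 0.05. Stringent criteria added an adjusted p below 0.01, a log2 fold change beyond 1 and a standard error (SE) below 1. The titles name a litter and an embryo for each library, so that the replicates of a group are separate embryos, and most embryos gave all 3 tissues. Daxx itself had 1031 to 1286 normalized counts in the S226A livers and 1088 to 1504 in their wild-type littermates, and it passed in no mutant and tissue (log2 fold changes from -0.12 to 0.04), which is no check of the labels, since both alleles change the protein. The hepatocyte gene Alb had at least 2565630 normalized counts in every liver, and Sftpc, a gene of the alveolar epithelium, had at least 141033 in every lung. Nkx2-1 was at 0 in all 16 livers. In 2 livers, however, transcripts of squamous epithelium stood out: the summed normalized count of 10 such genes was 32541 in wild-type liver replicate 2 of the S226A litters and 22064 in Y130A liver replicate 1, against 39.9 to 370 in the other 14 livers. Results in liver are therefore also given without this pair of libraries where they move.

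The 4 factors that were set against each other lie on different chromosomes. In GRCm38 (GENCODE M21), Cebpe is at chr14:54710360-54712174 on the minus strand with 2 exons, Gfi1 at chr5:107716657-107726036 on the minus strand, Irf8 at chr8:120736358-120756694 on the plus strand and Klf4 at chr4:55527143-55532466 on the minus strand. The 250 bases upstream of RefSeq start sites (GRCm38.p6) were searched on both strands for 6 motifs, namely TTNNGCAA for C/EBP factors, GAGGAAGT for PU.1, AAATCAC for GFI1, CACGTG for the E-box, AGATAA for GATA factors and TGAGTCA for NF-E2, which AP-1 shares. Of 32851 such windows in the table, 9.56%, 2.44%, 2.75%, 6.02%, 9.99% and 4.46% held the respective motif. Entries were present for Cebpa, Cebpb, Gfi1, Irf8, Klf4 and Per3, and matches were found in front of 3 of these 6 members. The share of all windows with any of the 6 motifs was not counted, so this number is not read as more than usual. The matches are shown because they belong to the factors that are contrasted below. The matched letters are in capitals, and those of Gfi1 and Irf8 match on the opposite strand.
Gfi1, 30 bases around a C/EBP match that begins 143 bases before its upstream start site, chr5:107725930-107725959, minus strand: cgaaggtaggtTTGCTGAActgctgtgcct
Irf8, 250 bases before the upstream start site with a GFI1 match that begins 176 bases before it, chr8:120736108-120736357, plus strand: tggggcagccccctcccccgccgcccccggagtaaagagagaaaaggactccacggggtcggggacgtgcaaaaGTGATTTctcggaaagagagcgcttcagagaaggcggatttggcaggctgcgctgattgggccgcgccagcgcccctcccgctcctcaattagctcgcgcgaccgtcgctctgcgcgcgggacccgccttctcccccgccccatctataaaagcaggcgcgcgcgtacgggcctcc
Klf4, 250 bases before the start site with an E-box that begins 182 bases before it, chr4:55532476-55532725, minus strand: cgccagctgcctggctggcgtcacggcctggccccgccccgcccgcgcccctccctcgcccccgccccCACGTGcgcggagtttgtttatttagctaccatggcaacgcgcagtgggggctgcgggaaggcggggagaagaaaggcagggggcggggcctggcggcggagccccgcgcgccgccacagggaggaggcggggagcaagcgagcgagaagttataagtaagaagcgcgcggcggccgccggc
The 30 bases of Gfi1 that are printed lie within the gene as GENCODE draws it, with 5 of them in an annotated exon. These letters are matches to short motifs and no measurement of binding. No PU.1, GATA or NF-E2 letters occurred in the 8 windows of the 6 members.

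Across the wild-type tissues, the factors of granulocytes and of red cells were mainly liver transcripts, whereas Klf4, Cebpb, Cebpd and Per3 were highest in lung. By FPKM (mean ± SD) the wild-type livers ranked Cebpa first with 78.3 ± 6.8 (n = 8) and Nfe2 second with 60.5 ± 8.5. Cebpb (10.1 ± 2.0), Cebpe (10.05 ± 2.09) and Spi1 (8.65 ± 1.18) followed and did not differ beyond their spread. Irf8 (5.80 ± 0.90), Gfi1 (3.17 ± 0.74), Cebpd (2.71 ± 0.54), Per3 (2.52 ± 0.41) and Klf4 (1.73 ± 1.13) came last, and from Gfi1 on each differed from the next by no more than the spread. In lung the order was Cebpa (28.5 ± 6.4, n = 7), Cebpb (20.9 ± 2.0), Klf4 (14.9 ± 2.9), Cebpd (13.2 ± 3.0), Per3 (7.33 ± 2.04), Irf8 (3.91 ± 0.33), Spi1 (2.67 ± 0.34) and Nfe2 (1.81 ± 0.80). The granulocyte factors were lowest there, with Gfi1 at 0.123 ± 0.075 and Cebpe at 0.054 ± 0.055. The neighbours Klf4 and Cebpd, and likewise Gfi1 and Cebpe, were within their spread. No member reached 2 FPKM in brain. Klf4 was highest there (1.48 ± 0.21, n = 8), followed by Per3 (0.818 ± 0.145), Cebpa (0.720 ± 0.128), Cebpb (0.591 ± 0.178), Cebpd (0.547 ± 0.146), Spi1 (0.440 ± 0.127) and Irf8 (0.359 ± 0.063), each within the spread of the next from Per3 on. Nfe2 (0.086 ± 0.034) and Gfi1 (0.015 ± 0.010) were lower still, and Cebpe had 0 or 1 read in each wild-type brain.

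Most differences between wild-type tissues were far outside the spread between embryos, although tissues of the same embryos were fitted as independent libraries. Nfe2 was higher in liver than in lung by 5.07 on the log2 scale (SE 0.17, edgeR adjusted p = 3.11e-27), Gfi1 by 4.68 (SE 0.31, edgeR adjusted p = 2.21e-17) and Spi1 by 1.72 (SE 0.13, edgeR adjusted p = 1.01e-15). Cebpe had at most 7 reads in any wild-type lung, against 124 to 600 in the wild-type livers. Klf4 was lower in liver than in lung by a log2 difference of -3.09 (SE 0.20, edgeR adjusted p = 9.4e-18), as were Cebpd (-2.29), Per3 (-1.48) and Cebpb (-1.07). Irf8 differed least, being 0.58 higher in liver (SE 0.11, edgeR adjusted p = 7.96e-06). All 10 members passed between liver and lung, where 80.1% of all genes passed, and 6 of them were higher in liver, against 37.8% of all genes. Between liver and brain 9 members passed, where 87.3% of all genes did, and Klf4 did not (log2 difference 0.19, SE 0.20, edgeR adjusted p = 0.349). All 9 were higher in liver, against 41.8% of all genes. Between lung and brain 84% of all genes passed, and all 10 members were higher in lung, against 41.3% of all genes.

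**Figure D1:**
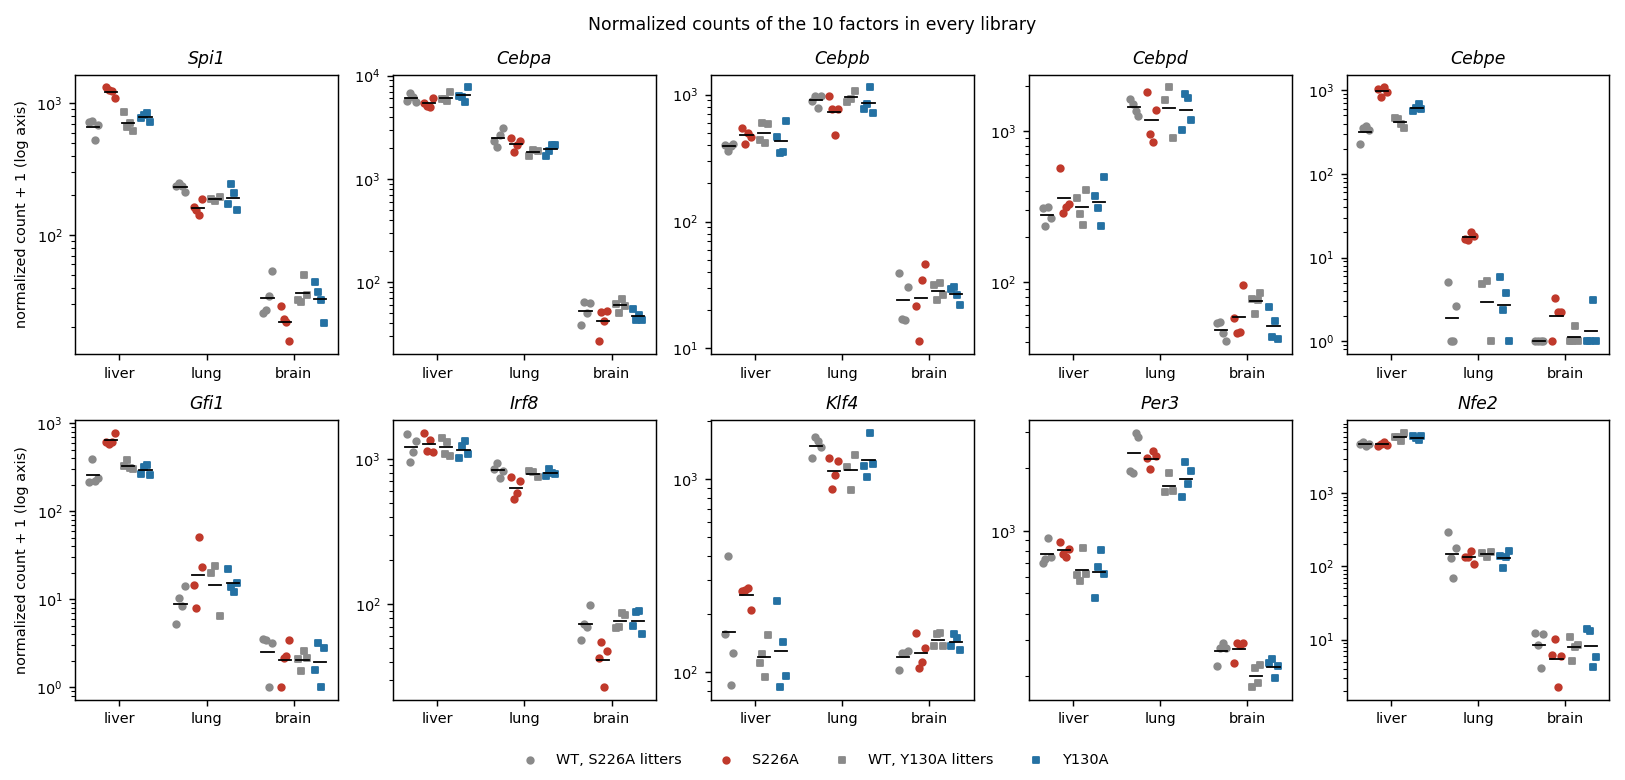
Normalized count plus 1 (log axis, range set for each gene) of the 10 members in all 47 libraries by tissue. Circles are the S226A litters, squares the Y130A litters, grey wild type, red S226A, blue Y130A, and bars the mean of the log values; Cebpe and Gfi1 are high in liver and near 0 in brain, and the S226A livers stand above their littermates for Spi1, Cebpe and Gfi1.

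In S226A liver, the 2 granulocyte factors and PU.1 were higher and no member passed as lower. Cebpe rose 3.08-fold, Gfi1 2.43-fold and Spi1 1.84-fold, whereas Irf8 was at the level of the littermates and Klf4 did not pass the test. Thus 3 of 10 members passed, against 11.7% of all genes (1972 of 16892). Cebpe and Gfi1 also met the stringent criteria, against 2.1% of all genes. The median log2 fold change of the 10 members was 0.35 and that of all genes -0.01. In bulk tissue, more cells of a type and more RNA per cell cannot be told apart.

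Cebpe, the C/EBP factor that late granulocyte precursors need for their secondary granules, had 1047, 838, 1086 and 955 normalized counts in the 4 S226A livers. The wild-type littermates had 225, 349.6, 372 and 329.7. The groups did not overlap, and the S226A embryo was the higher one in 4 of 4 litters. The log2 fold change was 1.62 (SE 0.29, edgeR adjusted p = 1.29e-04), and by length the level moved from 8.70 ± 1.77 to 26.8 ± 3.0 FPKM (SD, n = 4 each), when Spi1 was at 15.5 ± 1.2 and Cebpb at 10.8 ± 1.3 in the mutants.

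Gfi1, a zinc finger repressor that holds back monocyte genes in granulocyte precursors, had 607, 589.8, 619.9 and 776 normalized counts in S226A liver. Its wild-type littermates had 212, 390.4, 223 and 239, so the groups were separate, with wild-type replicate 2 nearest to the mutants. The log2 fold change was 1.28 (SE 0.33, edgeR adjusted p = 0.00635), and the mutant was higher in 4 of 4 litters. Without the 2 livers that hold squamous transcripts it was 1.53 (edgeR adjusted p = 0.00238). Gfi1 shares exonic bases with the non-coding A430072P03Rik on the other strand, which was not analysed here. Whether the counting used strand is not stated in the sources used here.

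Spi1 had 1325, 1255, 1247 and 1096 normalized counts in the S226A livers and 724, 728, 531 and 688 in their littermates. Every S226A liver was above every wild-type liver. The log2 fold change was 0.88 (SE 0.17, edgeR adjusted p = 2.1e-04). Spi1, Cebpe and Gfi1 passed in every alternative fit, including each of the 8 that left out 1 library.

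Irf8, which directs progenitors to monocytes and dendritic cells, overlapped between the groups. The S226A livers had 1501, 1129, 1342 and 1104 normalized counts and the wild-type livers 1483, 946, 1119 and 1321, a log2 fold change of 0.06 (SE 0.15, edgeR adjusted p = 0.879). Klf4, which promotes monocyte differentiation and is also a factor of differentiating epithelia, had 263, 265, 272 and 209.8 normalized counts in the S226A livers. Of the littermates, 3 were below these, at 158, 85.0 and 125, whereas wild-type replicate 2 had 400.1. The log2 fold change was 0.40 (SE 0.28, edgeR adjusted p = 0.416).

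The result for Klf4 rests on that library, 1 of the 2 livers with squamous transcripts. Without both of these livers, a fit chosen after seeing the data, Klf4 was higher in S226A liver by 1.03 on the log2 scale (SE 0.21, edgeR adjusted p = 7.62e-04), with 252 ± 29 normalized counts against 123 ± 37 (SD, n = 4 and 3). Leaving out wild-type replicate 2 alone gave an edgeR adjusted p of 0.00438. Of the 10 squamous genes, all of them tested, 7 passed as lower in S226A liver, against 11.7% of all genes in either direction. Outside wild-type replicate 2 the summed levels of the list overlapped, at 39.9 to 261 in the other 3 littermates and 66.9 to 304 in the S226A livers. In the Y130A set, the liver with squamous transcripts likewise had the most Klf4 of its group (234 against 82.9, 142 and 95.3). The part of the squamous transcripts in the Klf4 level was not tested.

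**Figure D2:**
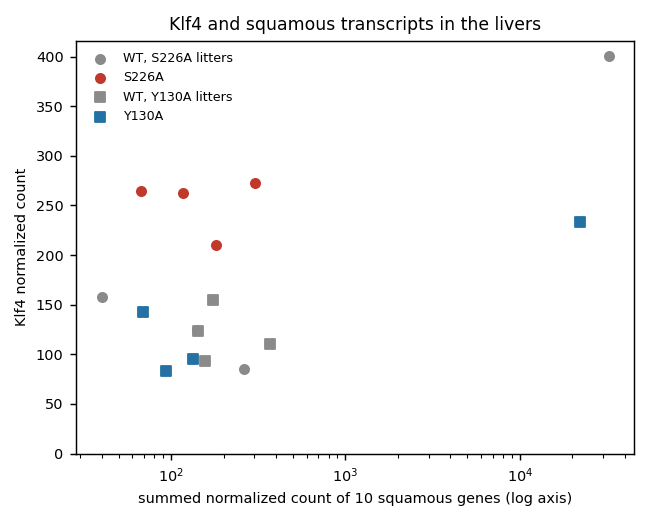
Klf4 (normalized count, linear axis from 0) against the summed normalized count of 10 squamous genes (log axis) in the 16 livers, 1 point per library, with symbols as in the plot of all members. The 2 livers at the right have sums of 22064 and 32541, and among the other 14 the S226A livers have the 4 highest Klf4 values, from 209.8 to 272.

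The remaining members did not pass in S226A liver. Cebpa, the founding C/EBP factor of granulocytes and monocytes and a main factor of hepatocytes, had 5398 ± 508 normalized counts against 6078 ± 582 (log2 fold change -0.17, edgeR adjusted p = 0.41). Cebpb had 549, 409.6, 501 and 465 in the mutants and 397, 359, 393 and 409.4 in the littermates. These ranges touched without overlapping, by a margin under 1 count, and the test did not pass (0.30, SE 0.22, edgeR adjusted p = 0.43). Cebpd was 0.41 higher (SE 0.26, edgeR adjusted p = 0.356), with 1 S226A liver at 570.2 and the others from 285 to 325. Cebpa, Cebpb and Cebpd, like Gfi1, share exonic bases with a gene on the other strand. Tmem189, the partner of Cebpb, had 415 against 413 normalized counts on average (0.01), and Spidr, that of Cebpd, was 0.25 higher (edgeR adjusted p = 0.124). The partner of Cebpa, Gm45091, was not analysed here. Per3 (0.06, SE 0.15) and Nfe2 (-0.02, SE 0.18) lay at the wild-type level. The groups did not overlap for 4 of 10 members, all higher in S226A liver, against 11.9% of all genes in either direction.

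**Figure D3:**
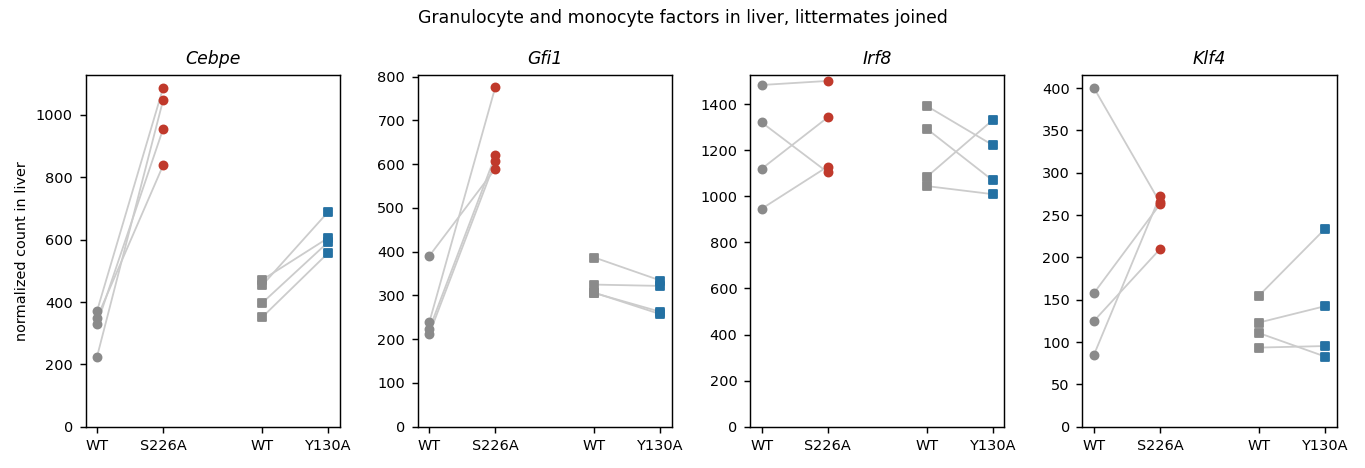
Normalized counts (linear axis from 0) of the granulocyte factors Cebpe and Gfi1 and the monocyte factors Irf8 and Klf4 in the livers, with grey lines joining mutant and wild-type embryos of 1 litter, the S226A litters on the left of each panel and the Y130A litters on the right. All 4 lines of the S226A litters rise for Cebpe and Gfi1, whereas 3 rise and 1 falls for Irf8 and 1 line of Klf4 starts at 400.1.

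In Y130A liver, no member passed, whereas 0.272% of all genes did. Cebpe was the member nearest to a difference. It had 557, 606, 689 and 592 normalized counts in the Y130A livers and 471, 453, 397 and 351 in their littermates, so that the ranges did not overlap (2.35% of all genes had such ranges) and the mutant was higher in 4 of 4 litters. Its log2 fold change of 0.55 (SE 0.28) had an unadjusted p of 0.0608 in the fit across all genes and an edgeR adjusted p of 0.584. With DESeq2 the adjusted p was 0.0914. Gfi1 went the other way, with 262.5, 322, 334 and 257 against 325, 387, 306 and 305 (log2 fold change -0.17, SE 0.32), and was lower than its littermate in all 4 litters. The values of these livers are listed by replicate number, which does not pair the litters in this set. Spi1 (0.15, SE 0.16), Irf8 (-0.06, SE 0.15) and Klf4 (0.21, SE 0.27) overlapped between the groups, and Klf4 was -0.18 without the 2 livers with squamous transcripts. By edgeR 0 of 10 members passed, 0 had an unadjusted p below 0.05, and DESeq2 called 0.

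The changes of the 2 mutants in liver were compared through the difference of their log2 fold changes. Only Gfi1 passed (S226A minus Y130A 1.45, SE 0.46, edgeR adjusted p = 0.0482), against 5.9% of all genes. Spi1 (0.73, SE 0.23, edgeR adjusted p = 0.0553) and Cebpe (1.07, SE 0.40, edgeR adjusted p = 0.118) did not. Irf8 (0.12) and Klf4 (0.19) differed by less than 1 SE. The call of Gfi1 was lost with RLE size factors (0.0517), without the filter (0.0527) and with litter as the replicate block (edgeR adjusted p = 0.061), and it was kept in 1 of 16 fits without 1 library. A fit to the 16 livers alone, on the other hand, called Gfi1 (0.00103), Cebpe (0.00353) and Spi1 (0.011), as did DESeq2. Without the 2 livers with squamous transcripts, Klf4 passed too (1.21, SE 0.29, edgeR adjusted p = 0.0098). The mutants were sequenced in separate sets of litters at different depths, and set and mutation cannot be told apart in this difference.

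In S226A lung, Cebpe was the single member that passed, against 1.88% of all genes, and it met the stringent criteria, as did 0.302% of all genes. It had 13, 11, 14 and 14 reads in the mutants and 3, 0, 0 and 1 in the littermates. The groups were separate but few reads carry them. Against a floor of 3 reads per wild-type library, the mean of Cebpe in the mutants was 3.86-fold higher, a ratio that was given no test. The fitted change of Cebpe had an edgeR adjusted p of 0.00367. The call held in all 8 fits without 1 library and was lost in a fit to the 8 lungs alone (edgeR adjusted p = 0.302). Gfi1 had 11, 5, 36 and 18 reads against 3, 7, 5 and 8, with 1 lung far above the rest, and did not pass (log2 fold change 1.44, SE 0.48, edgeR adjusted p = 0.114).

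Spi1 and the monocyte factors were on the other side of the wild-type level in S226A lung, without passing the test. Spi1 had 163, 153, 140.4 and 188 normalized counts against 234, 249.7, 235 and 210.5. Each S226A lung was below each wild-type lung. The log2 fold change was -0.53 (SE 0.18, edgeR adjusted p = 0.115), and DESeq2 called it (-0.55, adjusted p = 0.0326). Irf8 had 747, 529, 581 and 698 against 852, 939, 733 and 816 and was lower than the littermate in 4 of 4 litters (-0.39, SE 0.15, edgeR adjusted p = 0.168). Klf4 was -0.42 (SE 0.25), Cebpa -0.20, Cebpb -0.28, Cebpd -0.21, Per3 -0.11 and Nfe2 -0.33, with edgeR adjusted p from 0.419 to 0.781. The ranges did not overlap for 2 members, Cebpe and Spi1, against 3.81% of all genes.

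The S226A brains held almost no reads of the granulocyte factors. Cebpe had 0, 2, 1 and 1 reads in the mutants and 0 in all 4 wild-type brains, and a count of 0 allows up to 3 reads. Gfi1 had at most 2 reads in any of these 8 brains. Irf8 had 41.4, 54.2, 25.95 and 46.4 normalized counts in the S226A brains against 55.9, 72.6, 68.7 and 97.4. The ranges were separate (2.48% of all genes), by less than 2 counts. Its log2 fold change of -0.81 (SE 0.20) had an edgeR adjusted p of 0.0632. DESeq2 called it (-0.82, adjusted p = 0.026), and so did edgeR without wild-type brain replicate 1 (0.0249) or without S226A brain replicate 2 (0.0358). Spi1 was -0.67 (SE 0.24, unadjusted p = 0.00851 in the fit across all genes). Klf4 was 0.09 (SE 0.28). By edgeR 0 of 10 members passed, where 0.243% of all genes did, and 2 had an unadjusted p below 0.05.

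In lung and brain of the Y130A embryos no member passed. By edgeR 0 of 10 passed in lung (0.0178% of all genes did), with 0 at an unadjusted p below 0.05, and 0 in brain (0.00592%), with 1, Cebpa (-0.35, SE 0.16). DESeq2 called 0 in either. No member had separate ranges in these comparisons, where 4.16% and 4.75% of all genes did. Irf8 was 0.01 in both tissues (SE 0.16 in each), and Spi1 was 0.05 in lung and -0.14 in brain. The difference between the mutants passed for no member in lung (0.308% of all genes passed) or brain (0.0829%). There, 3 and 2 members had an unadjusted p below 0.05, and DESeq2 called Cebpe in lung and none in brain.

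**Figure D4:**
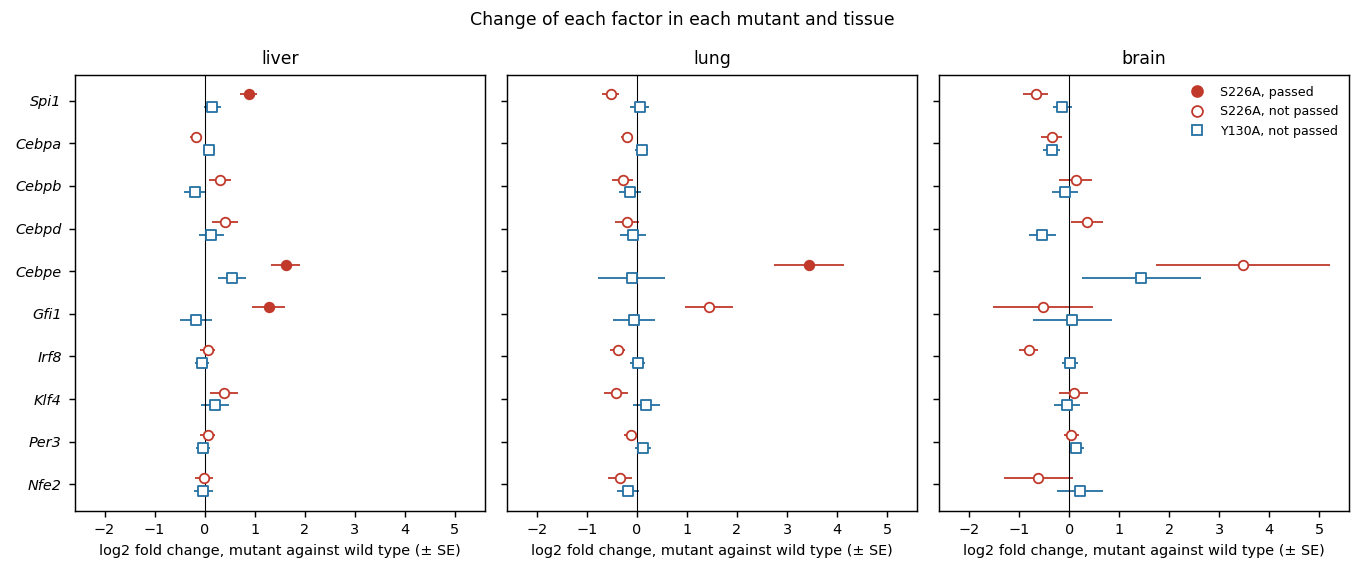
Log2 fold change of each member against its wild-type littermates (points, bars ± SE) in liver, lung and brain, red circles S226A and blue squares Y130A, filled where the edgeR adjusted p was below 0.05. Filled points are Spi1, Cebpe and Gfi1 in S226A liver and Cebpe in S226A lung, and the widest bars belong to Cebpe and Gfi1 in brain, where few reads were counted.

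The granulocyte factors were set against the monocyte factors in each library, as the mean log2(normalized count + 1) of Cebpe and Gfi1 minus that of Irf8 and Klf4. This balance is a description and was given no test. It was 0.34, 0.36, 0.44 and 0.84 in the S226A livers and -1.14, -0.73, -0.10 and -0.53 in their littermates. The groups were separate, with a difference of the means of 1.12 log2 units, and it was 1.09 without the livers with squamous transcripts. In Y130A liver the balance was 0.14 ± 0.35 against -0.03 ± 0.20 (SD, n = 4 each), a difference of 0.16. It was 2.57 higher in S226A lung (-5.51 ± 0.63 against -8.08 ± 0.57) and 0.72 higher in S226A brain (-5.17 ± 0.80 against -5.90 ± 0.50). The lung and brain values rest on libraries with few or no reads of Cebpe and Gfi1, and with a pseudocount of 0.1 these differences became 3.51 and 1.66. In Y130A lung and brain the differences were -0.11 and 0.11.

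**Figure D5:**
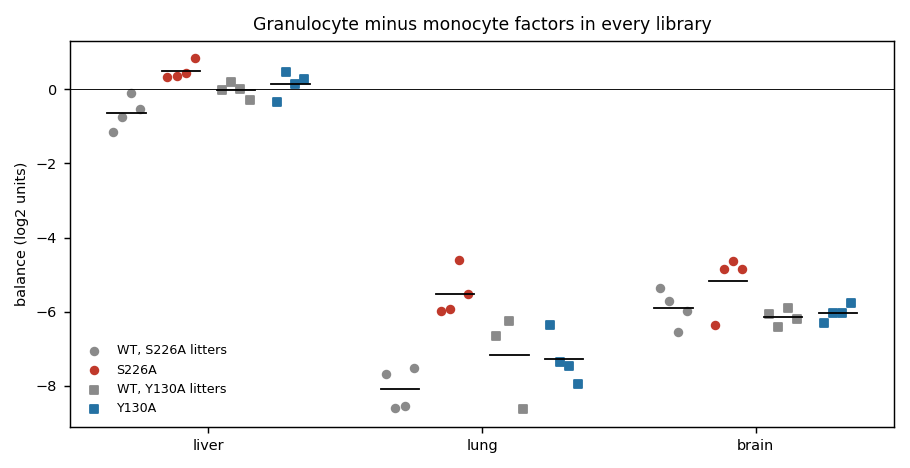
Granulocyte minus monocyte balance (log2 units) in all 47 libraries by tissue and group, with bars at the group means and symbols as in the plot of all members. The 4 S226A livers lie between 0.34 and 0.84 and their littermates between -1.14 and -0.10, and no lung or brain lies above -4.61.

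The counts of called list genes that follow are to be read against the shares of all genes that passed, 11.7% in S226A liver, 1.88% in lung and 0.243% in brain. The lists were chosen with earlier results of these data known, so the counts are a description and no independent support. In S226A liver, genes of granulocytes and their precursors were higher together with Cebpe and Gfi1. All 18 genes of a granulocyte list passed as higher there, with a median log2 fold change of 1.40, against -0.01 for all genes. Lcn2, a siderophore-binding granule protein, rose by 1.49 (SE 0.13, edgeR adjusted p = 1.38e-11) and Csf3r, the G-CSF receptor, by 1.34 (SE 0.20, edgeR adjusted p = 2.77e-06). The proteases Prtn3 (1.37) and Mmp9 (1.28) and the peptide Camp (1.37) rose as well. The summed level of the list was 309246 to 340238 in the S226A livers and 105907 to 128487 in their littermates. In S226A lung, where Cebpe passed and Gfi1 did not, 9 of the 18 rose and 1, the formyl peptide receptor Fpr2, fell by 0.95, and in S226A brain 2 rose, S100a8 and S100a9, where Cebpe and Gfi1 had at most 2 reads. In the Y130A tissues none of the 18 passed.

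Genes of a list that joins monocytes and macrophages were mostly lower in S226A liver, where Irf8 was at the wild-type level. The fall did not extend to the monocyte genes Ly6c2 and Ccr2. Of 16 such genes 13 fell in S226A liver and 1 rose, with a median log2 fold change of -1.61. The single riser was Ly6c2, a surface protein of circulating monocytes whose reads may be split with its near-identical neighbour Ly6c1 (1.46, SE 0.21, edgeR adjusted p = 1.39e-06), and the monocyte chemokine receptor Ccr2 was at 0.02. This pair was named after its values were seen. Csf1r, the receptor for M-CSF, fell by 1.61 on the log2 scale (SE 0.07, edgeR adjusted p = 6.83e-20), the complement gene C1qa fell by 3.26 and C1qb fell by 2.18. Clec4f, a marker of the resident macrophages of liver, had 10.2 ± 8.1 normalized counts against 3847 ± 769 (SD, n = 4 each). The summed level of the list was 9670 to 11483 in the S226A livers and 26254 to 29895 in the littermates. Csf1r also fell in S226A lung (-1.13) and brain (-1.52), where 5 of the 16 genes fell in each and none rose. Of 8 microglia genes 3 fell in S226A liver, 2 in lung and 4 in brain, where the respective shares of all genes differ as given above and Irf8 was lower without passing. There P2ry12 fell by 2.16 and Fcrls fell by 2.29. None of these genes passed in a Y130A tissue.

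Among 22 other fate factors of blood cells, 7 fell and 1 rose in S226A liver, against 11.7% of all genes in either direction. Irf4 fell by 1.76 on the log2 scale (SE 0.39, edgeR adjusted p = 0.00147) and the B cell factor Ebf1 fell by 0.87 (SE 0.17, edgeR adjusted p = 2.95e-04). Etv6, an ETS repressor, rose by 0.49 (SE 0.11, edgeR adjusted p = 0.00143). In S226A lung 1 of the 22 fell, the B cell factor Pax5, and in brain none passed. Of 8 genes of the B lineage, 2 fell in S226A liver, Cd79b (-1.09) and Cd79a (-1.38).

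Per3 and Nfe2 passed in no S226A tissue. None of 18 clock genes passed in S226A liver, lung or brain, against 11.7%, 1.88% and 0.243% of all genes. The lowest adjusted p in liver was 0.0699 (edgeR), for Rora (-0.34). The summed level of the clock list was 16531 to 21848 in the S226A livers and 21617 to 23512 in the littermates. Its median log2 fold change there was -0.18, against -0.01 for all genes. None of 14 erythroid and megakaryocyte genes passed in an S226A tissue either, their summed level being 323388 to 374247 in the S226A livers and 326665 to 427099 in the littermates. For lists this short, a lack of calls is not read as a difference from all genes, which was not tested. Cebpb and Cebpd are inducible in inflammation and by glucocorticoids. Of 13 acute phase and glucocorticoid genes that were tested, 2 rose in S226A liver, Lcn2, which is also on the granulocyte list, and Saa3 (1.40, SE 0.34, edgeR adjusted p = 0.0043), and Klf9 fell by 0.47, against 11.7% of all genes in either direction. None of 10 hepatocyte genes passed, although their summed level was 4275720 to 4999830 in the S226A livers and 5111670 to 5269170 in the littermates, without overlap. The part of these cell types in the levels of the members was not tested. Of 10 genes of lung epithelium and endothelium, 2 endothelial ones fell in S226A liver, Cdh5 (-0.46) and Pecam1 (-0.34), against 11.7% of all genes, and none passed in lung. The summed level of this list was 8243 to 10120 in the S226A livers and 10816 to 12252 in the littermates, without overlap. In the Y130A tissues no gene of any list passed.

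Over the 16 livers, the genes most like Cebpe by Pearson's r of log2(normalized count + 1) were Gm5416 (0.957), Itch (0.944), Ptpn6 (0.939), Plaur (0.937) and Serpinb1a (0.931). Those most like Gfi1 were Abr (0.959), Map3k9 (0.943), Slc27a4 (0.937), Tmem50b (0.928) and Kcnab2 (0.92). For Irf8 the highest values were lower, at 0.808 for Tmprss7, 0.787 for Tm6sf2, 0.758 for Serping1, 0.749 for Ccni and 0.748 for B4galt5. The gene most like Klf4 was Krt80 (0.893), a keratin, followed by Ap1s2 (0.827), Nebl (0.818), Atf6b (0.809) and Mlec (0.785). The points are 16 livers of 4 groups and 8 litters, so that any gene that differs between S226A and wild type resembles Cebpe and Gfi1 to some degree, and the pair of livers with squamous transcripts weighs on the values of Klf4.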

How the data were processed

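Per the labels and the methods of the study, RNA was extracted with Trizol and libraries were prepared by standard Illumina protocols. According to the submitters' processing notes and the methods, the authors used FastQC 0.11.5, Trim Galore 0.6.5 and STAR 2.6.0b on GRCm38, and left out 1 wild-type lung. The deposited values are raw counts of reads per gene, which are whole numbers without normalization; whether strand was used is not given in the sources used here. The members and the gene lists were chosen with earlier results of these data known.

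Counts were fitted with edgeR 4.0.16 (R 4.3.3; TMM, filterByExpr with minimum count 10 and minimum total 15, quasi-likelihood test) on all 47 libraries with 1 coefficient per group. Benjamini-Hochberg adjustment covered all 16892 genes, and each SE was obtained as |log2 fold change|/√F. FPKM used merged exons of GENCODE M21. DESeq2 1.42.0, RLE size factors, no filter, the libraries compared only, litter as replicate block, thinning of the deeper Y130A litters (seed 7) and leaving out each library were the alternatives, and a fit without 2 livers was added after seeing the data. Litters are given by the labels and were matched by design: 18 of 23 pairs of littermates had residuals correlated above 0.1 (median 0.21, against -0.06 for other pairs). No library was a copy of another of its group (lowest chi-square per degree of freedom 4.17 over 69 replicate pairs). Pairs across groups were not examined. The scripts were checked on simulated counts. All 10 members, Daxx, Csf3r, Csf1r and up to 4 genes per list with the lowest p were named by rule, and Ly6c2, Ccr2 and Fpr2 were named after their values were seen. 1 listed gene, Ahsp, was not analysed here. Results for some listed genes are not reported here. Intervals and floors cover counting error only.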

Additional observations from a re-analysis of the deposited data

Results flagged for a closer look

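Of 110 groups of 4 libraries (10 members, log2(normalized count + 1)), 6 held a library whose gap to its nearest neighbour, as a share of the group's range, was beyond Dixon's 95% value of 0.829. Chance alone flags about 1 group in 20. Cebpe stood out in Y130A brain and in the wild-type brains of the Y130A litters (both 1.000), where 1 library had 4 reads and 1 read and the other three had 0. Gfi1 was low in 1 wild-type brain of the S226A litters (0.929), with 0 reads against 2 in each of the others. Klf4 was low in 1 S226A liver (0.861; 209.8 normalized counts against 263 to 272) and in 1 wild-type brain of the S226A litters (0.889; 102 against 125 to 128). Per3 was low in 1 S226A brain (0.886; 229.6 against 282 to 289). Between the mutants, the change of Gfi1 in liver differed by 1.45 on the log2 scale (edgeR adjusted p = 0.0482).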

How the results depend on the processing

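Of 843 fold changes of members against wild-type littermates under alternatives, 836 kept their side of the threshold, 6 came past it, 1 fell short of it and 0 called ones reversed. The difference between the mutants is not part of this tally. In S226A liver, Spi1, Cebpe and Gfi1 passed in every alternative fit, and Klf4 came past the threshold as well (4 members) without the 2 livers with squamous transcripts and without the second wild-type liver alone (1.03, edgeR adjusted p = 0.00438). With the stringent criteria 2 members were left. In the Y130A tissues 0 members passed under any alternative run. In S226A lung, DESeq2 called 2 members (Cebpe and Spi1) and the fit to the libraries compared called 0, in place of 1. In S226A brain, DESeq2 called 1 member (Irf8) in place of 0, and leaving out 1 library gave 0 to 1. For the difference between the mutants in liver (1 member), RLE size factors, no filter, litter as replicate block and the stringent criteria gave 0. DESeq2 and the livers alone gave 3 (Spi1, Cebpe and Gfi1), and the fit without the 2 livers with squamous transcripts gave 2 (Gfi1 and Klf4). Leaving out 1 library gave 0 to 1: Gfi1 was kept only when the second wild-type liver of the S226A litters was left out, and Spi1 passed in its place when the fourth of the Y130A litters was left out (edgeR adjusted p = 0.0438). In lung this difference had 0 members, 1 (Cebpe) with DESeq2, and 0 to 1 without 1 library (Cebpe without wild-type replicate 3, edgeR adjusted p = 0.0497). The replicate block changed no other call. It gave a litter the same term in all tissues, and the pairing of littermates within a tissue was not fitted. The cause of these changes was not tested. The balance in S226A lung and brain was 3.51 and 1.66 with a pseudocount of 0.1. In Y130A lung it ran from -0.83 to 0.35 over the fits without 1 library and was 0.12 within litters, so its sign is not settled. Cebpe and Gfi1 in lung and brain rest on few reads in both sets of litters. In the fit to the lungs alone Gfi1 fell below the filter.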
